A study of Mus musculus with 2 samples.

Results

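Pou5f1 (which encodes Oct3/4), Sox2, Zfp42 (Rex1) and Tcf15 are 4 transcription factor genes of embryonic stem (ES) cells, the first pair of which are named in the title of the study together with Klf4. Each was identified by the RefSeq accession of its probe, and all 4 were found among 10149 named genes, each with 1 probe among 21028 gene probes tested. The labels describe 2 samples, siKlf4 ES cells 1 and 2, which form 1 group (n = 2). Both were EB5 mouse ES cells grown without feeders on gelatin and given siRNA, which the sample names give as against Klf4, together with the plasmid pCAGEGFP-IP. They were cultured for 24 h and then kept in puromycin for 24 h before RNA was extracted. The labels do not say whether the samples are separate cultures, so p-values measure only the spread between these samples, which may be technical. As background that the labels do not give, EB5 carries a drug resistance gene placed at an Oct3/4 allele. Each sample was labelled with Cy3 and hybridised to its own two-colour oligonucleotide array against Universal Mouse Reference RNA in Cy5, an equal mix of RNA from 11 cultured mouse lines; by source these were embryo and embryo fibroblast, testis, skin, myoblast, mammary gland, liver, kidney, alveolar macrophage and both B and T lymphocytes. A control that received no Klf4 siRNA is not analysed here, so the arrays set siKlf4 ES cells against a pool of other cell lines and give no effect of the siRNA on any of the 4 genes. Both arrays ran with the same dyes, so the dye and the source of the RNA cannot be told apart.

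Oct3/4 is a POU-domain factor and Sox2 an HMG-box factor; they bind side by side on composite DNA elements of many ES cell genes, their own among them, and are needed to keep cells pluripotent. Rex1 is a zinc finger protein of the YY1 family whose gene is a classic marker of the undifferentiated state and is switched off early in differentiation. Tcf15, also called paraxis, is a basic helix-loop-helix (bHLH) factor best known from the epithelial somite, where it pairs with E proteins; Id proteins, which sequester E proteins, oppose such pairs. In ES cells Tcf15 is known from cells that are being primed for differentiation.

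The 60-base probes decide what was measured, so the 30 bases at the 5′ end of each are shown as deposited, with no capitals because no part is singled out.
Pou5f1: agatcaagtattgagtattcccaacgagaa
Sox2: ctgcagttaaatttaggaccgttacaaaca
Zfp42: gcatagttccaacaggaaagtgaatggtga
Tcf15: ccatccaggcctagctggccagggacaagg
The Pou5f1 probe starts at position 887 of NM_013633.1, the Sox2 probe at 1756 of NM_011443.2, the Zfp42 probe at 1391 of NM_009556.2 and the Tcf15 probe at 822 of NM_009328.1, by the positions in the deposited files. Guanine and cytosine made up 45% of the Pou5f1 and Tcf15 probes, 35% of the Sox2 probe and 36.7% of the Zfp42 probe, beside a median of 41.7% over 21052 gene probes. For each of the 4, 0 other gene probes on the array shared a run of 20 bases with it. A gene read by 1 probe has no second probe to set beside it.

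All 4 genes stood far above the reference pool. At an adjusted p under 0.05 and at least 2-fold, with the same sign on both arrays, 4 of 4 were higher in the siKlf4 ES cells, whereas 5.08% of all 21028 probes were. By log2 ratio of ES cells over reference, the order was Sox2 (5.69), Zfp42 (5.01), Tcf15 (3.87) and Pou5f1 (2.86). These were ranks 2, 3, 16 and 65 among all probes, so 0.304% of probes lay above Pou5f1. The single-array ranges of neighbours in this order did not overlap. From Sox2 to Zfp42 the step was 0.68 ± 0.072 (SD, n = 2), from Zfp42 to Tcf15 1.14 ± 0.19 and from Tcf15 to Pou5f1 1.02 ± 0.027. Without background correction Zfp42 (4.50) and Sox2 (4.45) changed places, and Tcf15 (2.11) and Pou5f1 (1.76) lay closer together. The order is one of ratios to the pool. Above local background, Tcf15 and Pou5f1 had similar ES signals (1490 and 1914 against 1469 and 1762 units). Their reference signals differed more (67.7 and 90.3 against 181 and 209 units). In bulk RNA, fewer cells that express a gene and less RNA per cell cannot be told apart.

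**Figure D1:**
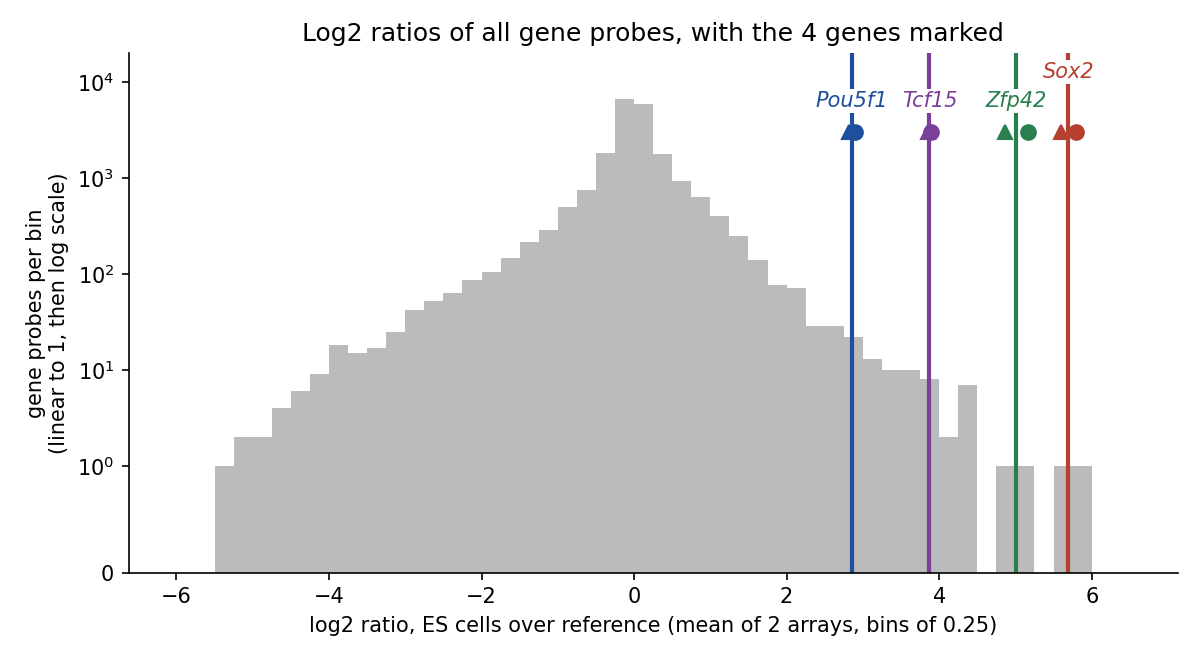
Gene probes per bin of log2 ratio, ES cells over reference (horizontal axis, mean of 2 arrays), on a vertical axis that is linear to 1 and logarithmic above. Coloured lines mark the means of the 4 genes, circles array 1 and triangles array 2; Pou5f1 at 2.86 stands in the thin right tail and Sox2 at 5.69 near its end.

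Pou5f1 had an ES signal of 1469 intensity units above local background on array 1 and 1762 on array 2, against 181 and 209 in the reference. The ES values were the higher on both arrays, and the channels did not overlap. The log2 ratios were 2.89 and 2.82, a mean of 2.86 ± 0.053 (SD, n = 2) or 7.24-fold (limma, Benjamini-Hochberg adjusted p = 6.96e-07). The reference signal lay 4.42 and 3.58 times the 95th percentile of 162 negative control spots of that array and channel, called the negative control limit below, so the pool gave a Pou5f1 signal above that of spots without mouse sequence. The ES signal lay 9.48 and 9.92 times its own limit. With the local background left in, the spots measured 1870 and 2162 for the ES cells, and 561 and 589 for the pool, a ratio of 3.34 and 3.67.

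Sox2 had ES signals of 10743 and 13668 units above background, 69.3 and 76.9 times the negative control limit. The reference gave 188 and 242 units, 4.60 and 4.15 times its limit. Array 2 was the brighter in both channels. The log2 ratios were 5.79 and 5.59, a mean of 5.69 ± 0.14 or 51.7-fold (limma, adjusted p = 4.71e-07). No pixel saturation was flagged for this spot or for those of the other 3 genes in either channel.

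Zfp42, the gene of the stem cell marker Rex1, gave ES signals of 20558 and 28844 units, 133 and 162 times the negative control limit. Its reference signals were 600 and 868 units, 14.7 and 14.9 times the limit, so among the 4 genes this probe cleared the limit in the reference by the widest margin. The log2 ratios were 5.16 and 4.86, with a mean of 5.01 ± 0.21 or 32.2-fold (limma, adjusted p = 8.49e-07). Its SD exceeded those of Sox2, Pou5f1 and Tcf15, and the ratio stood at 35.8-fold on array 1 and 29.0-fold on array 2.

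Tcf15, the bHLH factor of somites and primed ES cells, gave ES signals of 1490 and 1914 units, 9.61 and 10.8 times the negative control limit. The reference gave only 67.7 and 90.3 units, 1.66 and 1.55 times its limit of 40.9 and 58.4, the narrowest margin of the 4. The brightest negative control spot of this channel gave 45.2 units on array 1 and 168 on array 2. On array 2 the Tcf15 reference signal thus lay within the range of these spots. Within the reference spots, the pixels had SDs of 14.3 and 15.1 units, so the spots stood 4.75 and 5.97 pixel SDs above the local background. The log2 ratios were 3.89 and 3.85, a mean of 3.87 ± 0.026 or 14.6-fold (limma, adjusted p = 4.71e-07). The single-array ratios were close to each other here, but their difference changed sign without background correction, as given below.

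**Figure D2:**
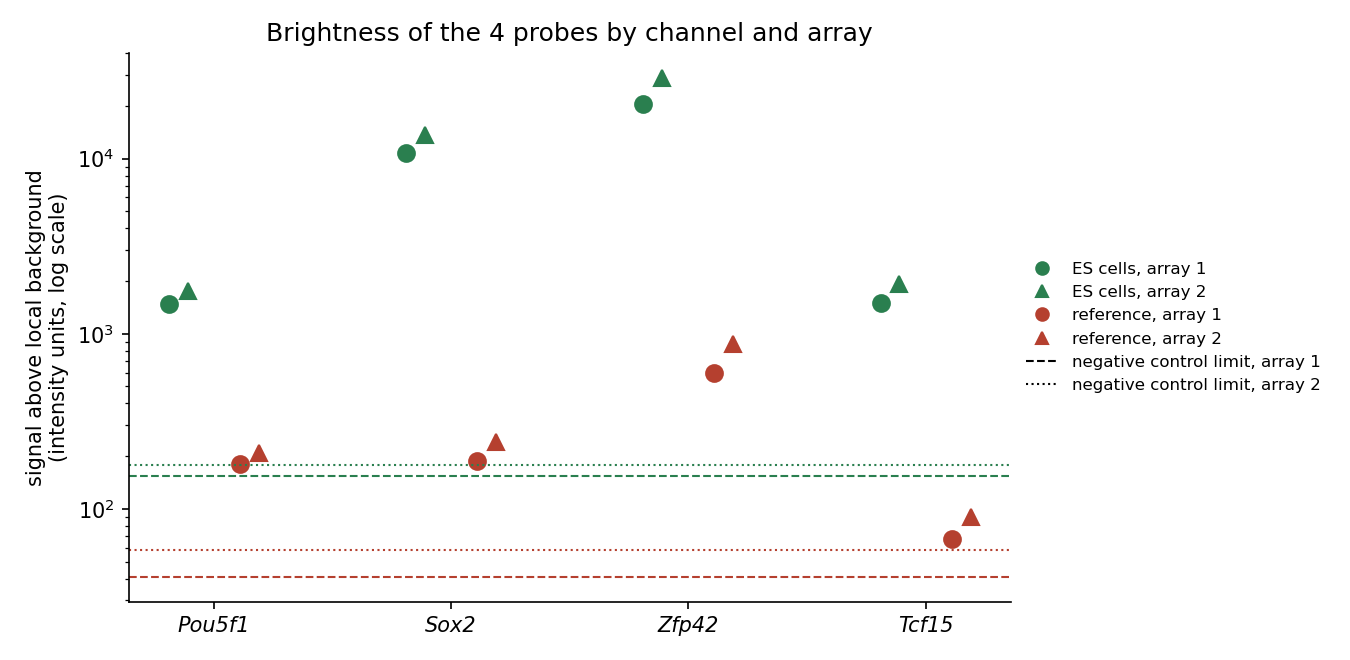
Signal above local background (intensity units, logarithmic axis) of the 4 probes in the ES channel (green) and the reference channel (red), with circles for array 1 and triangles for array 2; dashed and dotted lines mark the negative control limit of each channel on arrays 1 and 2. Every ES point lies above the reference points of the same gene, and the Tcf15 reference points (67.7 and 90.3) lie just above the reference limits.

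The ratio was lower on array 2 than on array 1 for all 4 genes, by margins that varied, but not in every way of processing: without background correction the difference was 0.040 for Pou5f1, 0.15 for Tcf15 and -0.0090 for Sox2. With it, the log2 difference, array 2 minus array 1, was -0.30 for Zfp42, -0.20 for Sox2, -0.075 for Pou5f1 and -0.036 for Tcf15. Over all probes the median difference was 0.0057 with an SD of 0.11, and 47.2% of probes were lower on array 2. Among the 65 probes with a log2 ratio of at least that of Pou5f1, 61.5% were lower on array 2 and the SD was 0.21. Only 0.623% of probes had a lower difference than Zfp42 and 2.35% a lower one than Sox2, against 17.8% for Pou5f1 and 30.7% for Tcf15. After loess and quantile scaling of average intensity between arrays, the Zfp42 signal was 0.17 higher on array 2 in the ES channel and 0.47 higher in the reference, on the log2 scale. For Sox2 the same steps were 0.042 and 0.24. The 2 samples of 1 group leave no test of a difference between them.

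Before any normalisation, the ratio of the background-subtracted signals barely moved between arrays. It was 57.1 and 56.4 for Sox2, 34.3 and 33.2 for Zfp42, 22.0 and 21.2 for Tcf15 and 8.13 and 8.43 for Pou5f1. The ES signal itself was 1.40-fold higher on array 2 for Zfp42 and 1.20-fold for Pou5f1, beside a median of 1.14-fold over all probes. In the reference the rise was 1.45-fold for Zfp42 and 1.16-fold for Pou5f1, beside a median of 1.04-fold. With median centring in place of loess, the log2 difference, array 2 minus array 1, was -0.15 for Zfp42 and -0.083 for Sox2. It was -0.030 for Pou5f1 and -0.021 for Tcf15. The part of loess in the array differences of the normalised ratios was not tested beyond these values.

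The scanner software's own error model gave a wider error than the spread between the arrays. In the authors' deposited table, the log2 ratio of Sox2 was 6.04 with an error of 0.49 on array 1 and 5.78 with 0.47 on array 2. For Zfp42 the authors' deposited table held 5.25 and 4.89, with errors of 0.43 and 0.41. For Tcf15 the authors' deposited table held 4.20 and 4.10, with errors of 0.41 and 0.42. For Pou5f1 the authors' deposited table held 2.99 and 2.90, with errors of 0.32 and 0.33. The single-spot p-values in the authors' deposited table, which concern 1 array each and not the condition, ran from 1.19e-34 for Sox2 on array 1 to 2.07e-18 for Pou5f1 on array 2.

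How large each fold was depended on the background, and on each gene differently. Across 7 ways of processing both arrays, Zfp42 ran from 22.7-fold to 33.6-fold and Sox2 from 21.9-fold to 60.2-fold. Pou5f1 ran from 3.39-fold to 8.47-fold, and Tcf15 from 4.33-fold to 21.5-fold. All 4 passed the test in each (limma, largest adjusted p = 0.000668, for Tcf15). The lowest values came without background correction, where Tcf15 fell to rank 62 and Pou5f1 to rank 107 among all probes, while Zfp42 and Sox2 ranked 2 and 3.

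**Figure D3:**
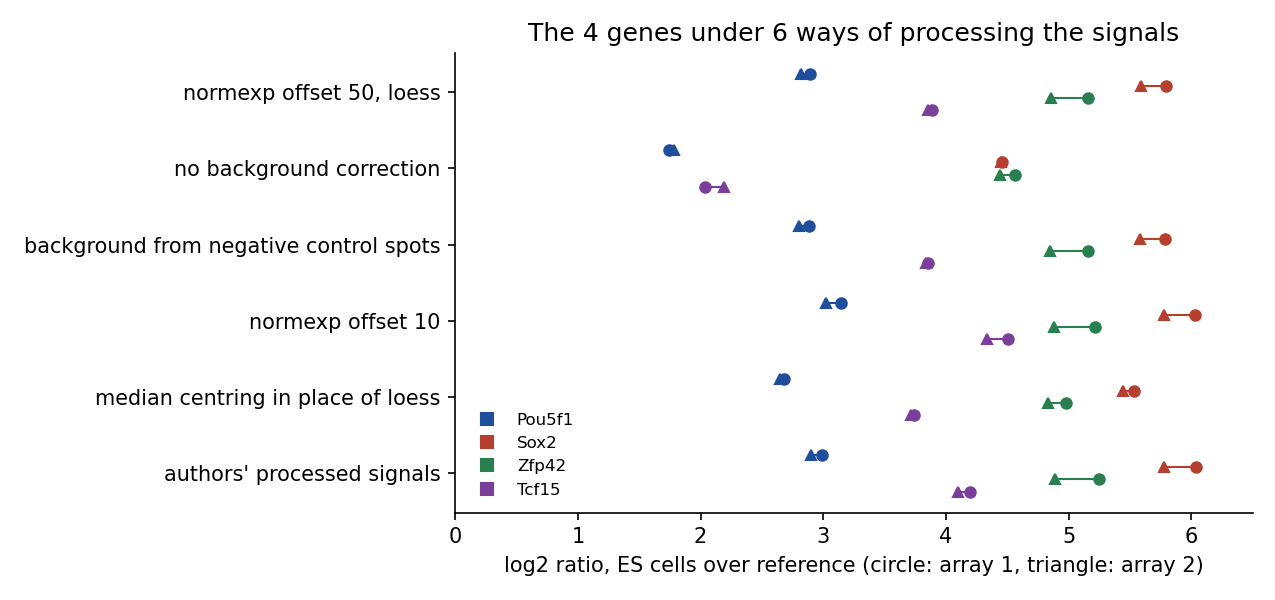
Log2 ratios of the 4 genes (horizontal axis, ES cells over reference) under 6 ways of processing the signals (vertical axis), with a circle for array 1, a triangle for array 2 and a line joining them. Without background correction the 4 genes move left, Tcf15 to 2.11 and Pou5f1 to 1.76, and Sox2 and Zfp42 fall together at 4.45 and 4.50.

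The genes whose ratios were most like each member were taken as the 3 with the smallest Euclidean distance over the log2 ratios of the 2 arrays, among 8720 other genes above the negative control limit in both channels on both arrays. Nearest to Sox2 were Tdgf1 (the Nodal co-receptor Cripto) at a distance of 0.41, Zfp42 at 0.97 and Tcl1 (an Akt cofactor) at 1.79. Nearest to Zfp42 were Tcl1 at 0.85, Morc1 (a silencer of transposons in the male germ line) at 0.93 and Sox2 at 0.97. Near these extreme ratios few genes lie, so the distances are wide. Nearest to Tcf15 were Ooep (an oocyte maternal-effect gene) at 0.049, Apoe (apolipoprotein E) at 0.14 and Jam2 (a junctional adhesion molecule) at 0.17. Nearest to Pou5f1 were Mkrn1 (a RING finger ubiquitin ligase) at 0.046, Hic2 at 0.046 and Tcea3 (a transcription elongation factor) at 0.068. A likeness over 2 arrays of 1 group says only that the ratios to this pool were of like size.

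The promoter windows are shown because Oct3/4 and Sox2 are known to act on their own genes and on Zfp42, and because the 3 genes stood high together. RefSeq windows on GRCm38.p6 were matched for 3 of the 4 genes; Tcf15 had no entry in the table. Each run is the 250 bases before the annotated start, read 5′ to 3′ in the direction of the gene, with capitals for the octamer ATGCAAAT or its first 7 letters ATGCAAA, which overlap each other, and for the Sox motifs CATTGT and CTTTGT, searched on both strands.
Zfp42 (chr8:43307010-43307259, minus strand): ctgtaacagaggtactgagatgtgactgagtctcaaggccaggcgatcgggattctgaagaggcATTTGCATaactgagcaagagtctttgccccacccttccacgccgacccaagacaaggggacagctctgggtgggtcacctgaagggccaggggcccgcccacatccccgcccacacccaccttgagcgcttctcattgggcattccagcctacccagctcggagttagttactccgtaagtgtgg
Sox2 (chr3:34649745-34649994, plus strand): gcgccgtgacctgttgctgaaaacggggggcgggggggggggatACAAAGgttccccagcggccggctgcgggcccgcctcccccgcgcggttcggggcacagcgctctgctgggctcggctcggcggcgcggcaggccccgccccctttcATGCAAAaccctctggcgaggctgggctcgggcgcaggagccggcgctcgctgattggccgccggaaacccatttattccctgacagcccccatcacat
Pou5f1 (chr17:35505782-35506031, plus strand): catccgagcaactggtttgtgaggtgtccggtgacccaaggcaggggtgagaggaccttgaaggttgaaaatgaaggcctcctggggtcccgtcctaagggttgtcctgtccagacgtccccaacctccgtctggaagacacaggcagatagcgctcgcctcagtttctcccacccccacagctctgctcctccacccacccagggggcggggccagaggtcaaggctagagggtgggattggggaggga
The Zfp42 window held the whole octamer on its opposite strand, starting 186 bases before the start, a motif found in 1.60% of 32851 windows of this length. The Sox2 window held the 7-letter form 99 bases before the start, which 4.12% of windows contain, and CTTTGT on the opposite strand 206 bases before it, which 16.5% contain. Pou5f1 has windows at 2 annotated starts. In the one shown these letters were not found; the other (chr17:35508557-35508806, plus strand) held CATTGT on the opposite strand 158 bases before its start, which 10.7% of windows contain. The window shown held the CACCC box CCACCC (28.1% of windows) at 4 places and the GC box GGGCGG (32.7% of windows) at 1. The CCACCC letters also occurred at 2 places in the Zfp42 window, and GGGCGG at 2 places each in the Zfp42 and Sox2 windows. These matches describe the sequence and are not binding data.

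Genes known to carry neighbouring Oct3/4 and Sox2 sites went both ways. Of 10 such genes listed, 6 were measured, and 3 of them were at least 2-fold higher and 1 lower, against 5.08% and 5.19% of all probes. Dppa4 (a chromatin-associated pluripotency marker) stood at 3.53 ± 0.023 (SD, n = 2) on the log2 scale. Lefty1 (the Nodal inhibitor of the study's title) stood at 3.14 ± 0.022 and Utf1 (a chromatin factor of ES cells) at 1.58 ± 0.087. Spp1 (osteopontin), which macrophages and bone cells also make in large amounts, was lower at -3.80 ± 0.17. Its ES signals were 3847 and 4943 units and its reference signals 60306 and 56066. Fgf4, whose enhancer holds a well-known Oct-Sox element, had 494 and 646 units in the ES cells and 479 and 560 in the reference, a log2 ratio of 0.0034 (limma, adjusted p = 0.945). The list had a median of 0.97, beside -0.0074 over all probes.

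Among other factors that act with Oct3/4 and Sox2 in ES cells, 26 of 36 were measured. Of these, 15 were higher at 2-fold and 0 lower, where 5.08% and 5.19% of all probes were. Without the limit on size 23 were higher and 0 lower, beside 31.6% and 31.4% of all probes, and the median log2 ratio was 1.50. Of the 23, 16 lay beyond the largest absolute log2 ratio of a negative control spot (0.52). Tdgf1 stood at 5.98 ± 0.066, although a dimmer probe for the same gene gave 2.36. Tcl1 stood at 4.43 ± 0.031 and Nr0b1, an orphan nuclear receptor that binds Oct3/4, at 4.03 ± 0.052. The 3 that did not pass were the BMP effector Smad1 (-0.022), the zinc finger factor Zfx (-0.076) and the histone methylation subunit Wdr5 (0.11). Esrrb and Nr5a2, nuclear receptors of the ES cell network, were among the 23 but did not exceed the negative control limit on any array, in ES cells or reference. A list of 10 ES cell markers includes the members Pou5f1, Sox2 and Zfp42. Of these 10, 9 were measured and 7 were at least 2-fold higher, against 5.08% of all probes. Esrrb (0.27) and Fgf4 were the exceptions. The measured markers other than the members also belong to this list of factors or to the targets before it, so the count adds no new genes. Nanog had no matching accession.

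Relatives of the 4 genes by family lay close to the pool. Of 31 other POU and Sox genes, 21 were measured; 5 were higher and 7 lower (31.6% and 31.4% of all probes were), of which 2 and 0 by at least 2-fold (5.08% and 5.19%). These counts are near the shares over all probes. By the brightest probe of each gene, their log2 ratios ran from -0.46 to 1.25 with a median of 0.0031. Pou2f1, the widely expressed Oct1, stood at 1.25 ± 0.043, and Sox13, a SoxD factor, at 1.12 ± 0.061, although a dimmer Sox13 probe gave 1.63. By the brightest probe, both genes passed 2-fold only with background correction (0.99 and 0.56 without it). In the ES cells the signal of 6 genes out of these 21 stayed under the negative control limit on both arrays. Sox3, a SoxB1 factor like Sox2, was among them, with 140 and 143 units in the ES cells and a log2 ratio of 0.066. Sox1, the third SoxB1 gene, was brighter at 360 and 383 units but stood at -0.040. Pou3f1 (Oct6), known from the epiblast after implantation, stood at 0.49 and passed as higher (limma, adjusted p = 0.0023). It had 3061 and 4474 units in the ES cells and 2196 and 3216 in the reference. The ratio lay within the largest absolute log2 ratio of a negative control spot, 0.52. Those spots were far dimmer, at most 162 and 283 units in the ES channel. Yy1, the zinc finger factor from whose family Zfp42 arose, had a log2 ratio of 0.59 ± 0.093, or 1.50-fold (limma, adjusted p = 0.000182).

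Around Tcf15, no measured partner, antagonist or fellow somite gene reached 2-fold above the pool. Of 30 listed genes 24 were measured; at 2-fold, 0 were higher and 7 lower, where 5.08% and 5.19% of all probes were. Without the limit on size 5 were higher and 12 lower (31.6% and 31.4% of all probes), and the highest log2 ratio was 0.29. The Id genes Id2 and Id3, whose products take E proteins away from bHLH factors, stood at -3.14 ± 0.079 and -2.08 ± 0.030. Id2 had 432 and 530 units in the ES cells against 4237 and 4167 in the reference, and Id3 had 1452 and 1762 against 6791 and 6717. Id4 did not pass (0.11). Tcf4, an E protein gene, stood at -1.90 ± 0.13, and Foxc1, a forkhead gene of paraxial mesoderm, at -2.34 ± 0.15 (-0.998 without background correction). The bHLH genes Twist1 (-1.40) and Twist2 (-1.05) were also lower, although not by 2-fold without background correction (-0.68 and -0.51). Tal1, a blood bHLH gene not above the limit in the ES cells, was at least 1.77-fold lower there. Of the somite segmentation genes, Msgn1 (-0.035) and Hes7 (-0.054) did not pass, and Mesp2 stood at -0.13 and Meox1, above the limit in neither channel, at 0.019.

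Genes of the primed epiblast, the state with which Tcf15 is associated, were mixed. Of 14 measured, 3 were at least 2-fold higher and 1 lower, where 5.08% and 5.19% of all probes were, and the median was 0.055. The de novo DNA methyltransferase gene Dnmt3b stood at 3.13 ± 0.21. The FGF target Etv5 stood at 2.62 ± 0.10 and the homeobox gene Otx2 at 1.99 ± 0.045 (0.75 without background correction). Otx2 had 465 and 524 units in the ES cells and 68.0 and 68.0 in the reference. Fgf5, a defining epiblast marker, was not above the limit in the ES cells on either array, with 148 and 160 units. The mesenchymal cadherin gene Cdh2 was also not above it there, and the reference exceeded it at least 2.24-fold.

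**Figure D4:**
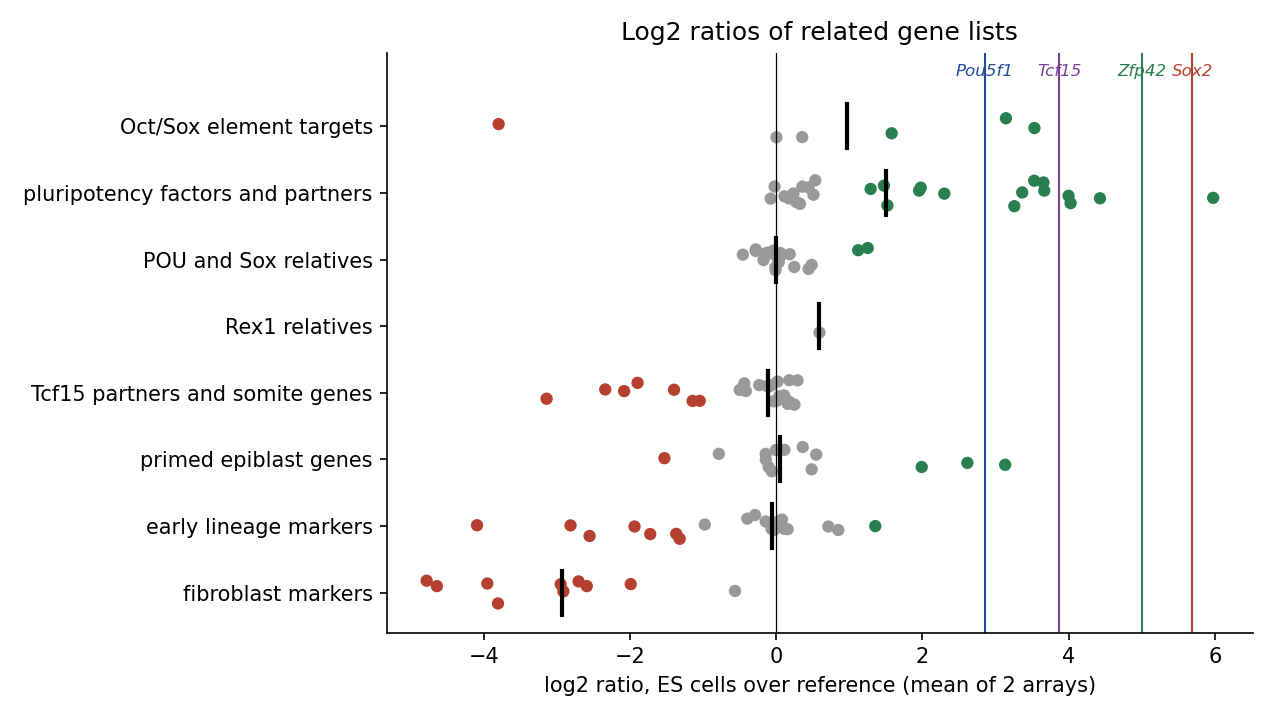
Log2 ratios of the measured genes of 8 related lists (horizontal axis, ES cells over reference, mean of 2 arrays; points are spread vertically for visibility). Green (higher) and red (lower) points differ by 2-fold or more at an adjusted p under 0.05, and grey points do not. Black bars mark list medians, and coloured lines the 4 genes. Each gene is shown by its brightest probe, and by it no gene of the POU and Sox list lies beyond 1.25.

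Markers of other cells that an ES culture could hold were mostly at or below the pool. Of 23 measured markers of primitive endoderm, trophectoderm and neural cells, 1 was at least 2-fold higher, Lama1 (a laminin chain) at 1.36, and 7 were lower, where 5.08% and 5.19% of all probes were. Without the limit on size 5 were higher and 11 lower (31.6% and 31.4% of all probes). Besides Lama1, the neural genes Neurod1 (a bHLH factor, 0.85) and Gbx2 (a homeobox gene, 0.71) were higher by more than any negative control spot. The keratin gene Krt18 (-4.09), the matrix gene Sparc (-2.55), Col4a1 (-1.72) and the trophoblast factor Gata3 (-1.37) were lowest among those above the limit in both channels on both arrays. Without background correction Lama1, Col4a1 (-0.88) and Gata3 (-0.60) did not reach 2-fold. The endoderm factors Sox17 (0.033) and Foxa2 (-0.14) and the trophectoderm factor Cdx2 (-0.40) differed from 0 by no more than a negative control spot can. Foxa2 and Cdx2 nonetheless passed as lower (limma, adjusted p = 0.0183 and 0.00105). They were brighter than those spots, with 580 and 827 units for Foxa2 and 437 and 465 for Cdx2 in the ES cells. The signal of the list, summed over its different probes, was 8778 and 10160 units for the ES cells, and 33612 and 34152 for the pool, of which Krt18 alone gave 19468 and 19458. Of 10 measured fibroblast markers, 9 were at least 2-fold lower and 0 higher, where 5.19% and 5.08% of all probes were. The pool itself includes embryo fibroblasts, so ratios below it do not show how many fibroblasts the ES culture held. Bgn (-4.78), Dcn (-4.64), Vim (-3.81) and Fbln2 (-2.95) were lowest among those above the limit in both channels on both arrays. In the ES cells 2 of the 10 did not exceed the limit on either array and are not ranked here. The summed signal of the fibroblast markers was 6417 and 7788 units for the ES cells, of which Vim gave 3904.4 and 4864.5. For the pool it was 87786 and 85012, of which Vim gave 59637 and 57306. The part of such cells in the ratios of the 4 genes was not tested.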

How the data were processed

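RNA of 2 siKlf4 ES cell samples and a common reference was measured on 2 two-colour arrays. Per the file headers, Agilent Feature Extraction A.7.5.1 made the deposited intensity values: mean and background signals as scanned, and processed signals with local background subtracted and LOWESS dye normalisation. The same deposited files hold the log10 ratio of red over green processed signal, its error and a p-value per spot. The deposited series table is on a log10 scale and nothing read here says how it was made. Its values match the log10 red processed signal, averaged over the arrays, less the log10 ratio of the array in question (within 2e-04 for 99.6% of probes on each), so it is uncentred, with medians 2.918 and 2.921.

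Scanned mean signals were then corrected by normexp on the local background median (offset 50) and normalised by loess within arrays, control spots at weight 0, with limma 3.58.1 in R 4.3.3. Outlier-flagged spots were left out (24 of 21052 probes). Ratios are log2 of ES cells over reference, tested against 0 over all 21028 probes with lmFit and eBayes (1 residual and 4.24 prior degrees of freedom) and Benjamini-Hochberg adjustment. The software's well-above-background flag marked 100% of negative controls for the ES cells, so the 95th percentile of these spots served as the limit. Bounds raise the dim channel to the lowest normalised value above it. The brightest probe stands for a gene with several. Probes were named through RefSeq accessions (10422 of 21052). The number of arrays limits the precision.

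The members, lists and tests were chosen with earlier results of these data known. Named by rule were the 4 members, up to 4 genes called at 2-fold per list by absolute ratio, then those with a bound, and the 3 nearest genes per member; 1 gene of this rule is not reported here. Other named genes were chosen after their values were seen. Alternatives were no or another background correction, another offset, median centring, the authors' processed signals, a filter on dim probes, the mean of several probes, the series table and leaving out each array.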

Additional observations from a re-analysis of the deposited data

How the results depend on the processing

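All 4 member ratios kept their sign and, where a test was possible, an adjusted p under 0.05 (limma) in every alternative run. Leaving out an array gives a value with no test: without replicate 1 and without replicate 2, Pou5f1 stood at 2.82 and 2.89, Sox2 at 5.59 and 5.79, Zfp42 at 4.86 and 5.16, and Tcf15 at 3.85 and 3.89. Of the values under an alternative, 138 were unmoved and 10 moved. Unmoved means the same call for a tested ratio and a factor of at most 1.5 for a count. For an array difference or a single-array ratio it means a shift under 1 SD. This SD is that of the gene's ratios on the 2 arrays, so it grows with the array difference itself. An array difference could therefore shrink a good deal and still count as unmoved. For Sox2 it went from -0.20 to -0.083 under median centring and counted as unmoved. With 2 arrays, leaving 1 out always shifts a mean by less than 1 SD, so the single-array ratios of the members could not count as moved. Each member has 1 probe, so the mean of its probes had to give the same ratio, and the filter on dim probes left the ratio as it was. The 138 include these values. Without background correction, the counts over all probes fell from 1068 to 510 higher and from 1092 to 467 lower at 2-fold, and the POU and Sox relatives and the early lineage markers had 0 higher. The array 2 minus array 1 difference then stood at 0.040 for Pou5f1, -0.0090 for Sox2 and 0.15 for Tcf15. For Tcf15 it was -0.17 with an offset of 10, -0.095 with the authors' processed signals and -0.095 in the deposited series table. The cause was not tested. The Tcf15 reference signal was only 1.66 and 1.55 times the negative control limit. No paired analysis was possible because the samples form 1 group.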

Other observations

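The octamer ATGCAAAT, seen in the Zfp42 window, occurred at like shares before the starts of genes that stood high and of genes that stood low. With 1 window of 250 bases per gene, it occurred in 11 of 546 measured genes that were at least 2-fold higher in the siKlf4 ES cells (2.01%), in 12 of 590 that were at least 2-fold lower (2.03%) and in 1.77% of all 8040 genes matched. The 7-letter form ATGCAAA, found in the Sox2 window, occurred in 3.11%, 3.22% and 3.84%. Of the Sox motifs, CATTGT occurred in 7.69% of the higher, 4.92% of the lower and 7.69% of all matched genes, and CTTTGT in 13.2%, 11.4% and 13.8%. The GC box GGGCGG occurred in 61.5%, 56.4% and 51.0%. These shares are descriptions without a test, and cover neither distant enhancers nor probes without a symbol.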
